A study of Mus musculus with 20 samples.

Results

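CpG methylation was examined at the genes of 4 proteins of the primary granules of neutrophils, Mpo, Elane, Prtn3 and Ctsg, in 3 intervals of the mm9 mouse genome: chr11:87595001-87625000 for Mpo, chr10:79330001-79352000 for Elane and Prtn3, and chr14:56710001-56730000 for Ctsg. All cytosines of CpG sites in these intervals were taken that had a coverage of at least 10 reads in at least 4 of the 5 libraries of each group, singly and summed in fixed windows of 1000 bp. This gave 145 cytosines, on 124 CpG sites, of 1730534 on the autosomes, and 12 windows with at least 3 such cytosines of 127276. The libraries were made by enhanced reduced representation bisulfite sequencing, in which CpG-rich restriction fragments are read after bisulfite treatment, which leaves methylated cytosines as C and turns unmethylated ones into T in the reads. The 20 libraries came from mice of the FVB/n background and fell into 4 groups of 5: CD34+ early and CD34- late promyelocytes of wild-type (WT) mice, and the same fractions of mice that carry the PML-RARα transgene, the fusion oncogene of acute promyelocytic leukaemia. The labels name neither the promoter that drives the transgene nor the animals behind each library, so the p-values below measure the spread between libraries, which may be technical in part. Gene expression was not among these data, so the sorted fractions were not checked against expressed markers.

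Primary, or azurophil, granules are formed at the promyelocyte stage, and their contents are among the main products of that stage. Mpo encodes myeloperoxidase, the haem enzyme that makes hypochlorous acid from hydrogen peroxide and chloride. Elane, Prtn3 and Ctsg encode neutrophil elastase, proteinase 3 and cathepsin G, related serine proteases that are stored active in the granule. Transcription factors of the ETS family such as PU.1, and the C/EBP family, are known to act on the promoters of these genes. Methylation of CpG sites near active regulatory sequence is generally low in the cell type that uses it. In the RefSeq table of GRCm38.p6, Prtn3 and Elane are neighbours, with Plppr3 before and Cfd, the complement factor D gene, after them. Mpo lies between Tspoap1 and the lactoperoxidase gene Lpo, and Ctsg between Mcpt8 and the granzyme gene Gzme. An mm9 annotation was not used here, so exons, introns and start sites are not given for the positions below, and the Elane and Prtn3 interval is described as a whole.

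The 250 bases before each annotated start are shown for the CpG sites they hold, which the libraries may or may not have read. They come from RefSeq (GRCm38.p6) and are written on the strand of the gene, with CG sites and the motif AGGAAGT in capitals.
Mpo, chr11:87793534-87793783, plus strand: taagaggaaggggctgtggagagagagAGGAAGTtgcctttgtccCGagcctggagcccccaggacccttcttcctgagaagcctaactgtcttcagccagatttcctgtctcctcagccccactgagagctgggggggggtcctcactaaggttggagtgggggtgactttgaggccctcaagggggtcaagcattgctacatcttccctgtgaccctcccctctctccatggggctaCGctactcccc
Elane, chr10:79886062-79886311, plus strand: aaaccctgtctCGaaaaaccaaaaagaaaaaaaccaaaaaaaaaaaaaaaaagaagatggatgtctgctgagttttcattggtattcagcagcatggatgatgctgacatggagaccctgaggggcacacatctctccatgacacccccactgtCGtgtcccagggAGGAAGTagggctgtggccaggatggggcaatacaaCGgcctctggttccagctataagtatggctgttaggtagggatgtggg
Prtn3, chr10:79879417-79879666, plus strand: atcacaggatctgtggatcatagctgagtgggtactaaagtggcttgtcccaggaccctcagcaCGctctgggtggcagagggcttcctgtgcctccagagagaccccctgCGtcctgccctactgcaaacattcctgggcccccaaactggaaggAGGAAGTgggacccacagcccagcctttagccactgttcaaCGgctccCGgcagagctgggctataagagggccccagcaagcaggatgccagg
Ctsg, chr14:56102575-56102824, minus strand: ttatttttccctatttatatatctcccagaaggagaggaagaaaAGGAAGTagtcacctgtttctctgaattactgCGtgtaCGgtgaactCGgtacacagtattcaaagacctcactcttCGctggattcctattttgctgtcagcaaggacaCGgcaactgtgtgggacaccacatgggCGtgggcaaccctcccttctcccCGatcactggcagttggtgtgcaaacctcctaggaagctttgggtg
The 250 bases held 2 CG sites for Mpo, 3 for Elane, 4 for Prtn3 and 7 for Ctsg, and 57.0% of the 32851 mouse promoters in the table held at most 7, with a median of 6. AGGAAGT, which contains the GGAA core bound by ETS factors, was chosen after the sequences had been seen. It occurred once on the gene's strand in each of the 4 sequences, with its first base 223 bases before the start for Mpo, 84 for Elane, 94 for Prtn3 and 206 for Ctsg, and not on the other strand. On either strand it was found in 7.69% of the promoters in the table. A match of letters is a description and not a binding site. The spacing of the CG sites did not place any of the 4 promoters on the mm9 positions of the cytosines. For Mpo, Prtn3 and Ctsg the best offset matched 1, 3 and 3 sites, which was too few. For Elane the best offset matched 4 sites, but another matched 3, too close to choose between them. The sequence matched was longer than the 250 bases shown, and for Elane it held 6 CG sites. None of the windows below is therefore called a promoter.

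Depth varied between libraries: the coverage of all listed cytosines added up to between 83631324 and 362881291, and the median coverage of a cytosine from 32 to 150. At the 145 cytosines the median coverage per cytosine was between 36.5 and 307.5 reads. At the 40 of them with a mean level between 20 and 80%, most libraries gave values below 5% or above 95% at 0 to 5% of cytosines. The exceptions were WT CD34+ replicate 1 with 22.6%, PML-RARα CD34+ replicates 5 and 11 with 17.1 and 24.3%, and PML-RARα CD34- replicates 4, 6 and 12 with 13.2, 18.9 and 10.3%. WT CD34+ replicate 1 lacked 25 of the 145 cytosines and PML-RARα CD34+ replicate 11 lacked 22. The scatter of a library was taken over all windows of the series with a mean level between 20 and 80%, as the median over windows of how far it lay from the middle of the remaining 4 libraries in that group. The 5 highest values, from 6.59 to 9.49 points, were those of replicate 1 (WT CD34+), replicates 5 and 11 (PML-RARα CD34+) and replicates 6 and 12 (PML-RARα CD34-), called the 5 libraries of high scatter below. They were known from earlier results of these data. PML-RARα CD34- replicate 4 came next with 6.16 points, close to replicate 12, and the other 14 libraries had 3.55 to 5.72. The features called between fractions over both genotypes, and the Ctsg window, are given below with all libraries, without these 5, and without all 6 libraries of many extreme values named above. Values per library are listed in the order of replicate numbers, which are 1, 7, 9, 15 and 17 for WT CD34+, 2, 8, 10, 16 and 18 for WT CD34-, 3, 5, 11, 13 and 19 for PML-RARα CD34+, and 4, 6, 12, 14 and 20 for PML-RARα CD34-.

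The Mpo interval held 36 of the cytosines, the Elane and Prtn3 interval 103 and the Ctsg interval 6. They lay in 19 of the 72 windows that the intervals span, so most of each interval was not read. Of the 145 cytosines, 76 had a mean level below 5%, 16 between 5 and 20%, 40 between 20 and 80%, and 13 above 80%. Mpo and Ctsg were mostly intermediate, with 21 of 36 and 5 of 6 cytosines between 20 and 80%. In the Elane and Prtn3 interval 69 of 103 cytosines were below 5%, and 12 of the 13 cytosines above 80% lay there.

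**Figure D1:**
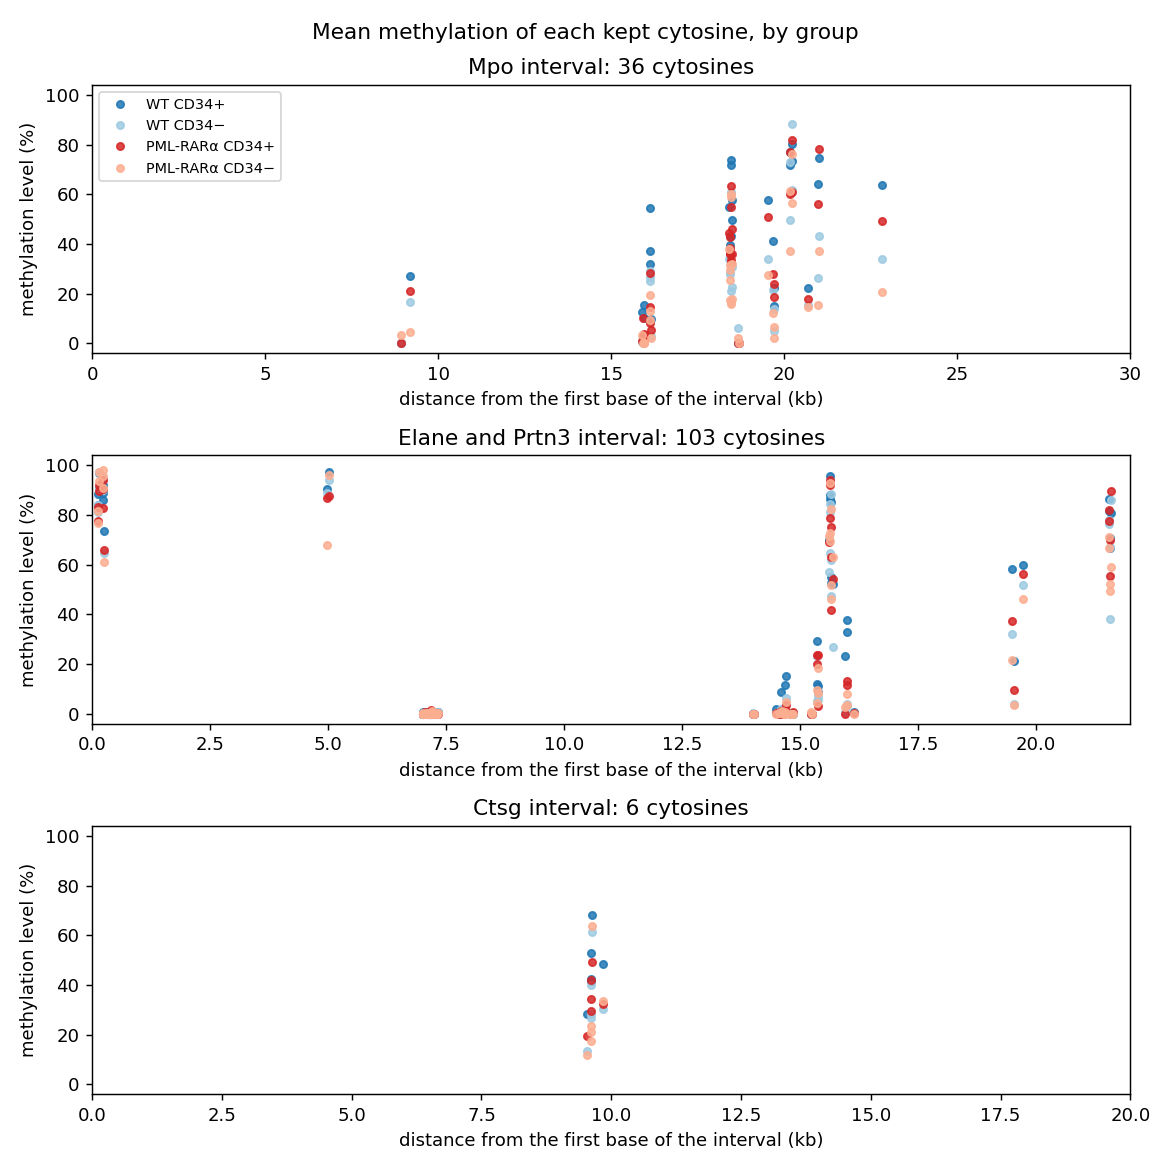
Mean methylation level in percent (vertical axis) of each of the 145 cytosines in the 4 groups (colours), by distance in kb from the first base of its interval. The 36 Mpo cytosines are mostly intermediate, the 103 of the Elane and Prtn3 interval are mostly near 0 with methylated ends, and the 6 of Ctsg lie in 1 window.

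Within the Mpo interval methylation differed between cytosines a short distance apart. A run of 11 cytosines at chr11:87613390-87613501 had mean levels from 25.7 to 64.3%, while the next 2, at 87613670 and 87613699, had 2.08 and 0.111%. Then 2 cytosines at 87614544 and 87614662 had means of 42.6 and 25.6%, and 87614698 and 87614716 had 16.7 and 10.2%. From 87614716 to 87615166, 450 bp apart, the mean went from 10.2 to 54.7%, and the highest value of the interval, 81.7%, was at 87615230. Further from these, 87603932 had a mean of 0.802%: it was listed at 0% in 19 libraries, whose read numbers allow up to between 1.24 and 8.57%, and at 16.0% in PML-RARα CD34- replicate 6 (60 of 374 reads, 95% Wilson interval 12.7 to 20.1%).

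The Elane and Prtn3 interval began with 7 cytosines above 80% at chr10:79330117-79330229 and 2 more at 79334981 and 79335020, with means of 83.5 and 93.8%. The next kept cytosine, at 79337001 and 1981 bp from 79335020, had a mean of 0.0226%. The 61 kept cytosines from 79337001 to 79344687 were all below 5%, with a median of 0.0925%. No cytosine was kept in the 6680 bp between 79337324 and 79344004, so no level is given for that stretch. Methylation was present again over a short stretch, where 5 cytosines at 79345620-79345662 had means of 66.9 to 89.4%. Those at 79345369-79345379 before them had 9.03 to 12.5%, and those at 79345944-79345990 after them 6.73 to 14.2%. The distance from 79345379, at 12.5%, to 79345620, at 66.9%, was 241 bp, and that from 79345697, at 49.0%, to 79345944, at 6.73%, was 247 bp. Towards the end of the interval 6 cytosines between 79349736 and 79351590 had means of 52.4 to 79.4%.

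The window chr10:79337001-79338000, with 48 cytosines, had the lowest level of the 12, and 3.45% of all windows tested were lower. Its levels were 0, 0.190, 0.122, 0.0889 and 0.0947% in WT CD34+, 0.152, 0.191, 0.0704, 0.109 and 0.0664% in WT CD34-, 0.219, 0, 0, 0.136 and 0.0759% in PML-RARα CD34+, and 0.0656, 0.0680, 0, 0.144 and 0.122% in PML-RARα CD34- libraries. The 4 libraries without a methylated read there allow up to between 0.119 and 0.298%. The highest window of the interval was chr10:79330001-79331000, with 94.5, 87.8, 90.6, 81.0 and 86.3% in WT CD34+ and 89.2, 84.5, 84.8, 90.6 and 77.4% in WT CD34- cells. The PML-RARα values were 88.4, 82.8, 76.6, 79.5 and 88.7% in CD34+ and 84.9, 94.2, 76.9, 83.5 and 83.8% in CD34- cells. All 4 groups overlapped in both windows.

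Averaged over its 36 cytosines, Mpo was at 41.0, 38.5, 42.7, 35.1 and 36.6% in WT CD34+ and at 26.0, 24.2, 28.4, 25.3 and 28.5% in WT CD34- cells. In PML-RARα cells the values were 31.5, 39.7, 23.1, 30.2 and 34.0% for CD34+ and 22.6, 21.4, 20.0, 21.3 and 21.8% for CD34-. Every CD34- library was thus below every CD34+ library of its genotype, with means of 26.5% ± 1.93 (SD, n = 5) against 38.8% ± 3.12 (SD, n = 5) in WT and 21.4% ± 0.965 (SD, n = 5) against 31.7% ± 6.04 (SD, n = 5) in PML-RARα cells. The PML-RARα CD34- libraries also lay below all WT CD34- libraries. These averages, and those of the other intervals below, are descriptions without a test. Each takes the kept cytosines that a library had, so libraries differ in the cytosines averaged. With all reads of the interval pooled, so that deep cytosines weigh more, the PML-RARα CD34- libraries spanned 13.2 to 23.4% and overlapped both the WT CD34- libraries (18.3 to 29.1%) and the PML-RARα CD34+ libraries (18.0 to 36.0%). The WT fractions did not overlap then either, since the WT CD34+ libraries spanned 29.3 to 35.5%. On the 32 cytosines with a coverage of 10 in all 20 libraries the PML-RARα fractions overlapped. There PML-RARα CD34+ replicate 11 was at 23.8% and PML-RARα CD34- replicate 4 at 24.0%. The WT fractions did not overlap on these cytosines, at 32.7 to 42.4% in CD34+ and 24.4 to 29.3% in CD34-.

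For Ctsg the mean over 6 cytosines, or 5 in WT CD34+ replicate 1, was 62.1, 46.4, 43.2, 43.3 and 42.2% in WT CD34+ and 34.1, 29.2, 37.6, 35.6 and 30.4% in WT CD34- cells. It was 37.0, 43.9, 22.1, 33.3 and 36.2% in PML-RARα CD34+ and 25.9, 37.9, 30.6, 20.7 and 27.5% in PML-RARα CD34- cells. The WT fractions did not overlap, while the PML-RARα fractions did. Over the 103 cytosines of the Elane and Prtn3 interval the group means were close together, at 20.8% ± 1.35, 18.7% ± 0.935, 19.8% ± 2.18 and 17.3% ± 1.68 (SD, n = 5 each) in the group order above, and the fractions overlapped in both genotypes. On its 63 cytosines with a coverage of 10 in all 20 libraries the WT fractions did not overlap, at 19.9 to 23.5% in CD34+ and 16.6 to 18.7% in CD34-. The PML-RARα fractions overlapped there, at 16.0 to 20.6% in CD34+ and 15.9 to 19.5% in CD34-.

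The comparison of CD34- with CD34+ cells asks how methylation differs between late and early promyelocytes. With both genotypes in an additive model, 1 of the 12 windows passed the test (group means at least 10 percentage points apart and an adjusted p below 0.05), against 0.607% of all windows: chr11:87614001-87615000 in the Mpo interval, with 4 cytosines. Its level was 15.9, 35.1, 51.7, 28.8 and 28.4% in WT CD34+ and 23.2, 20.3, 20.6, 10.2 and 13.2% in WT CD34- cells. In PML-RARα cells it was 24.3, 27.6, 27.9, 24.8 and 35.9% in CD34+ and 13.0, 2.46, 9.21, 7.01 and 15.0% in CD34- libraries. All 5 PML-RARα CD34- libraries were below all 5 CD34+ libraries. The WT fractions overlapped through WT CD34+ replicate 1, the lowest of its group and 1 of the libraries with many extreme values.

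Across both genotypes methylation of this Mpo window fell by 16.6 percentage points in CD34- cells (adjusted p = 0.00244, quasi-binomial model). Means were 32.0% ± 13.1 and 17.5% ± 5.52 (SD, n = 5 each) in WT, and 28.1% ± 4.63 and 9.34% ± 4.97 (SD, n = 5 each) in PML-RARα cells. Without the 5 libraries of high scatter the difference was -17.6 points (adjusted p = 0.00637), without all 6 libraries of many extreme values it was -17.9 points (adjusted p = 0.0125), and with flowcell as a factor the adjusted p was 0.0251. Within single flowcells the WT fractions differed by -10.5 (flowcell A), -14.9 (B) and -18.4 points (D), and the PML-RARα difference was -15.5 on B, the only flowcell with both of its fractions. With limma's linear model of log ratios the adjusted p was 0.0592 and the call was lost. Over 30 alternatives that keep the window's borders the adjusted p ranged from 0.000842 to 0.0592. When the borders were moved by 500 bp the call was lost: all 4 cytosines then lay in chr11:87614501-87615500, together with 4 others, and that window had a difference of -11.6 points (adjusted p = 0.181).

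**Figure D2:**
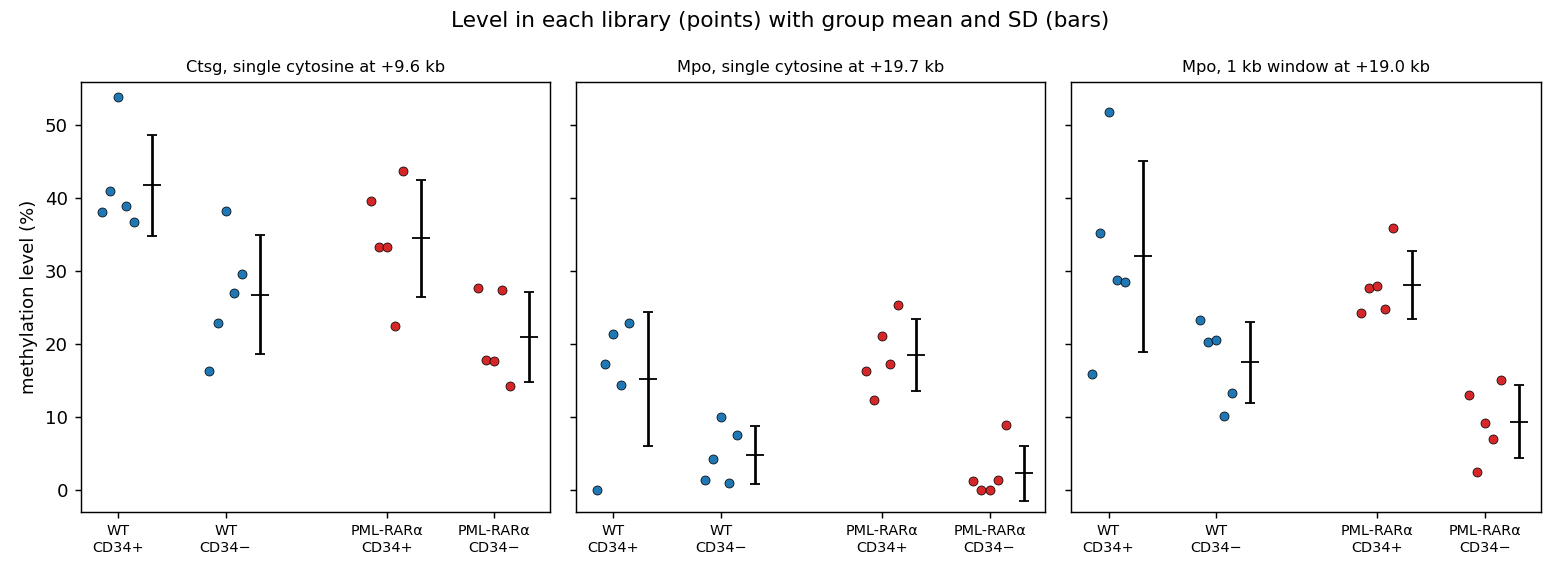
Methylation level in percent of the 3 features that passed the test between fractions, in each library (points, blue WT and red PML-RARα), with the group mean and SD (bars). In the Mpo window at right the PML-RARα CD34- libraries, at 2.46 to 15.0%, lie below all CD34+ libraries of that genotype, at 24.3 to 35.9%.

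Taken by genotype, none of the 12 windows was called in WT cells, against 0.425% of all windows, and none in PML-RARα cells, against 0.0558%. In the quasi-binomial model 5 windows in WT and 4 in PML-RARα cells had an unadjusted p below 0.05, and in limma's model 4 and 3, with 0 called in each. The share of all features with an unadjusted p below 0.05 is not given in this text. Such counts, here and below, are therefore descriptions that are not set against a background, and nothing is concluded from them. The Mpo window at 87614001 had a difference of -14.5 points in WT (adjusted p = 0.294) and of -18.8 points in PML-RARα cells (adjusted p = 0.0503). The second value lay close to the threshold, and it was passed when WT CD34+ replicate 1 or 9, WT CD34- replicate 16 or PML-RARα CD34- replicate 20 was left out, with adjusted p-values of 0.0351, 0.0313, 0.0467 and 0.0476. Without the 6 libraries of many extreme values it was -17.3 points (adjusted p = 0.344). The libraries of the fractions did not overlap in 1 window in WT cells (Ctsg 56719001, against 2.11% of all windows) and in 2 in PML-RARα cells (Mpo 87614001 and Elane and Prtn3 79351001, against 1.09%).

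At the neighbouring Mpo windows the CD34- means were lower as well, without passing the test. The lowest window of that interval, chr11:87610001-87611000, was at 20.5, 7.60, 9.42, 2.34 and 3.98% in WT CD34+ and at 0.601, 0.505, 2.95, 0.909 and 0.592% in WT CD34- cells. PML-RARα CD34+ cells had 5.84, 6.50, 0, 2.31 and 5.30% and PML-RARα CD34- cells 0, 0, 4.43, 0 and 0%, where the libraries at 0 allow up to between 0.798 and 3.75%. Here WT CD34- replicate 10 overlapped WT CD34+ replicate 15, and the difference over both genotypes was -5.38 points (adjusted p = 0.0591). The highest, chr11:87615001-87616000, was at 53.7, 66.8, 57.5, 60.3 and 61.1% in WT CD34+ and at 38.9, 43.5, 54.6, 54.2 and 54.5% in WT CD34- cells. In PML-RARα cells it was at 64.1, 66.8, 27.4, 40.1 and 65.0% in CD34+ and at 55.4, 42.0, 30.8, 54.4 and 49.7% in CD34- cells, so that the groups overlapped widely (difference over both genotypes -8.48 points, adjusted p = 0.3195). At chr11:87613001-87614000, with 13 cytosines, the group means were 34.9 and 24.4% in WT and 28.8 and 21.6% in PML-RARα cells (-8.86 points, adjusted p = 0.114). When the windows were moved by 500 bp, chr11:87612501-87613500 was called in WT cells (-18.6 points, adjusted p = 0.0299) and over both genotypes (-17.2 points, adjusted p = 0.000496). It was the only window of the moved grid in the 3 intervals that was called in any comparison, and it leaves out the unmethylated cytosines at 87613670 and 87613699.

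Ctsg had a single window, chr14:56719001-56720000. Its level was 68.9, 50.2, 50.4, 43.7 and 43.4% in WT CD34+ and 42.9, 31.7, 40.6, 36.6 and 29.1% in WT CD34- cells. It was 36.8, 58.8, 20.6, 38.2 and 37.2% in PML-RARα CD34+ and 22.7, 26.0, 37.7, 21.7 and 24.3% in PML-RARα CD34- cells. The WT fractions did not overlap, although the highest CD34- library, at 42.9%, was close to the lowest CD34+ library, at 43.4%. The PML-RARα fractions overlapped through CD34+ replicate 11 and CD34- replicate 12. The difference over both genotypes was -13.5 points (adjusted p = 0.0678). It passed the test without the 5 libraries of high scatter (-12.6 points, adjusted p = 0.00784) or the 6 of many extreme values (-12.6 points, adjusted p = 0.0142). It also passed without PML-RARα CD34+ replicate 11 (adjusted p = 0.0264) or PML-RARα CD34- replicate 12 (adjusted p = 0.0369), the libraries of that overlap. In no other alternative was this window called, among them limma's linear model and flowcell as a factor.

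In the Elane and Prtn3 interval the largest difference in WT cells was at chr10:79349001-79350000, with 37.7, 57.1, 68.0, 36.5 and 57.3% in CD34+ and 42.4, 28.6, 25.5, 64.6 and 37.3% in CD34- libraries. In PML-RARα cells this window was at 51.2, 35.3, 35.7, 38.0 and 54.8% in CD34+ and 16.4, 60.3, 15.2, 43.4 and 53.1% in CD34- libraries. The spread within each group was wider than the differences of -11.6 points in WT (adjusted p = 0.937) and -5.30 points in PML-RARα cells. Window chr10:79351001-79352000 was more uniform: the PML-RARα libraries were at 75.2, 77.5, 76.2 and 71.1% in CD34+ replicates 3, 11, 13 and 19, and at 58.3, 58.7, 62, 59.5 and 60.2% in CD34-. WT cells had 82.4, 84.6, 65.0 and 76.97% in CD34+ replicates 7, 9, 15 and 17, and 58.0, 69.7, 80, 70.7 and 66.8% in CD34-. WT CD34+ replicate 1 and PML-RARα CD34+ replicate 5 had no reads there. The PML-RARα fractions did not overlap at this window (-15.2 points, adjusted p = 0.240), and the WT fractions did (-8.19 points, adjusted p = 0.880). Over both genotypes the difference was -11.7 points (adjusted p = 0.104). It passed the test without WT CD34+ replicate 15 (adjusted p = 0.0474) or WT CD34- replicate 10 (adjusted p = 0.0239), and in no other alternative.

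**Figure D3:**
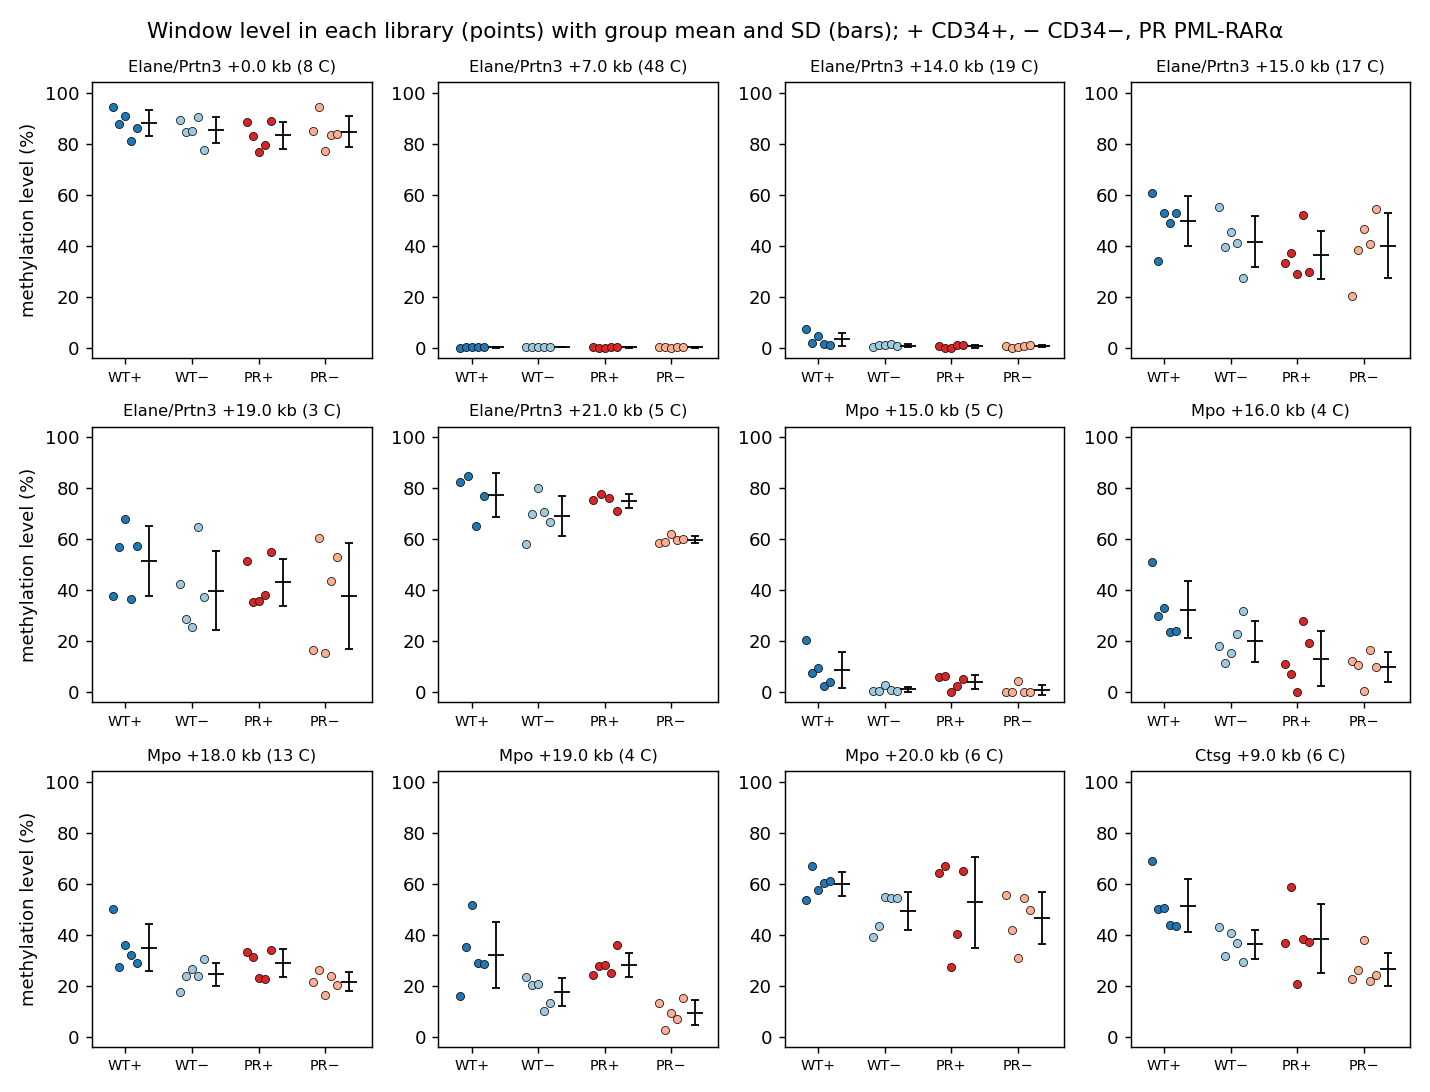
Methylation level in percent of the 12 tested windows in each of the 20 libraries (points), with the group mean and SD (bars). Panels are named by interval and by the distance of the window from the first base of its interval. Groups are WT CD34+ (WT+), WT CD34- (WT-), PML-RARα CD34+ (PR+) and PML-RARα CD34- (PR-), and C is the number of cytosines.

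Of single cytosines, 2 of 145 passed the same test over both genotypes, against 0.102% of all cytosines. The first was the Mpo cytosine at 87614716 on the minus strand, inside the called window. It was at 0, 17.3, 21.3, 14.4 and 22.9% in WT CD34+ and at 1.33, 4.24, 10.0, 0.909 and 7.47% in WT CD34- libraries. In PML-RARα cells it was at 16.3, 12.4, 21.1, 17.3 and 25.3% in CD34+ and at 1.24, 0, 0, 1.30 and 8.94% in CD34- libraries. The 3 libraries at 0 had 127, 394 and 231 reads, which allow up to 2.36, 0.761 and 1.30%. Its methylation fell by 13.3 points in CD34- cells (adjusted p = 0.0370). WT CD34+ replicate 1 was the only CD34+ library below 10%, and the fractions did not overlap in PML-RARα cells.

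The second was the Ctsg cytosine at 56719606, also on the minus strand. Its levels were 38.1, 41.0, 53.8, 38.9 and 36.7% in WT CD34+ and 16.2, 22.8, 38.2, 26.9 and 29.5% in WT CD34- libraries, and 39.6, 33.3, 33.3, 22.5 and 43.7% in PML-RARα CD34+ and 27.7, 17.8, 17.6, 27.4 and 14.3% in PML-RARα CD34- libraries. It fell by 14.2 points in CD34- cells (adjusted p = 0.0433), and the fractions overlapped in both genotypes, in WT through CD34- replicate 10 and in PML-RARα through CD34+ replicate 13. Coverage ranged from 15 to 284 reads. Both cytosines were close to the threshold: the call was lost in 19 of 29 alternatives at the Mpo cytosine and in 22 of 29 at the Ctsg cytosine, and with flowcell as a factor neither passed. Neither passed when the 5 libraries of high scatter were left out (adjusted p = 0.0709 and 0.256) or without the 6 of many extreme values (adjusted p = 0.114 and 0.315). Without the 5 libraries the Mpo cytosine 87615236 (-14.1 points, adjusted p = 0.0470) and the Ctsg cytosine 56719619 (-13.6 points, adjusted p = 0.0372) were called instead, and without the 6 only 56719619 was (-15.3 points, adjusted p = 0.0372).

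In WT cells no cytosine was called, against 0.0426% of all cytosines, and in PML-RARα cells none, against 0.00335%. By the quasi-binomial model 25 and 22 had an unadjusted p below 0.05, of which 24 and 20 were lower in CD34- cells. By limma's model the numbers were 13 and 17. The fractions did not overlap at 6 cytosines in WT (0.680% of all cytosines) and at 3 in PML-RARα cells (0.413%), all lower in CD34-. The smallest p in WT cells was at the Mpo cytosine 87613468, with 58.5, 34.5, 49.3, 35.8 and 38.2% in CD34+ and 14.3, 15.8, 19.9, 12.6 and 20.3% in CD34- libraries (-26.7 points, adjusted p = 0.109). No CD34- library of WT cells reached the lowest CD34+ library there. The PML-RARα libraries were at 35.6, 66.7, 24.0, 12.9 and 28.8% in CD34+ and 12.1, 23.7, 7.02, 14.3 and 22.8% in CD34- and overlapped (adjusted p = 0.471).

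In the Elane and Prtn3 interval the smallest p in WT cells was at 79351562, at 74.4, 64.0, 62.5 and 66.1% in CD34+ replicates 7, 9, 15 and 17 and at 30.0, 40, 59.5, 30.6 and 29.8% in CD34- (-28.8 points, adjusted p = 0.277). Without WT CD34- replicate 10, the highest of its group, the adjusted p was 0.0366 and the cytosine was called. At 79349500 the WT libraries were at 50.9, 55.3, 64.0, 57.1 and 64.9% in CD34+ and at 41.9, 17.2, 31.0, 33.3 and 36.7% in CD34-, again without overlap (-26.4 points, adjusted p = 0.657). PML-RARα libraries had 47.2, 63.6, 19.4, 35.3 and 20.6% in CD34+ and 0.690, 43.5, 12.2, 27.3 and 24.0% in CD34- at that position and overlapped (-15.7 points, adjusted p = 0.385). Of the remaining cytosines chosen by smallest p, the Ctsg cytosine 56719619 had WT means of 42.3 and 28.3% (-13.97 points, adjusted p = 0.688).

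The comparison of PML-RARα with WT cells asks how the transgene is associated with methylation within a fraction. No window was called in CD34+ cells, against 0.00314% of all windows, or in CD34- cells, against 0.000786%, and none over both fractions, against 0.00157%. In the quasi-binomial model 3, 4 and 5 windows had an unadjusted p below 0.05, and in limma's model 2, 1 and 3. The largest difference at Mpo was at chr11:87611001-87612000, where WT CD34+ libraries were at 51.1, 29.8, 33.0, 23.8 and 24.0% and PML-RARα CD34+ libraries at 10.9, 7.20, 0, 27.8 and 19.3% (-19.3 points, adjusted p = 1). Replicate 11, at 0%, allows up to 1.06%, and PML-RARα CD34+ replicate 13 overlapped the WT group. In CD34- cells the same window was at 18.1, 11.4, 15.2, 22.9 and 31.8% in WT and at 12.1, 10.5, 0.314, 16.5 and 9.99% in PML-RARα libraries (-10.004 points, adjusted p = 0.510). The groups overlapped in both fractions.

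At Ctsg the genotype difference of the window was -12.98 points in CD34+ (adjusted p = 1) and -9.69 points in CD34- cells (adjusted p = 0.579). In the Elane and Prtn3 interval the largest in CD34+ cells was -13.5 points at chr10:79345001-79346000 (adjusted p = 1), with 60.5, 34.0, 52.7, 48.7 and 52.7% in WT and 33.3, 37.3, 28.8, 52.0 and 29.7% in PML-RARα libraries. In CD34- cells that window was at 55.0, 39.5, 45.1, 41.0 and 27.4% in WT and 20.2, 38.2, 46.5, 40.8 and 54.4% in PML-RARα libraries, which overlapped throughout. The largest in CD34- cells was -9.29 points at chr10:79351001-79352000 (adjusted p = 0.463). No tested window had groups without overlap, where 0.784% of all windows did in CD34+ and 0.930% in CD34- cells.

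Single cytosines gave no call between genotypes either, against 5.78e-05% of all cytosines in CD34+, 0.000693% in CD34- and 0.000636% over both fractions. By the quasi-binomial model 10, 9 and 20 had an unadjusted p below 0.05, and by limma's model 7, 7 and 8. The groups overlapped at all 145 cytosines in CD34+ cells (0.403% of all cytosines did not) and at 144 in CD34- cells (0.465%). The exception, named after its values were seen, was the Mpo cytosine 87615230, at 82.9, 89.4, 88.3, 91.5 and 89.7% in WT and at 71.4, 76.5, 74.2, 79.3 and 78.7% in PML-RARα CD34- libraries (-12.3 points, adjusted p = 0.373). Among the smallest p-values, the Mpo cytosine 87613456 had means of 73.6% in WT and 63.4% in PML-RARα CD34+ cells (adjusted p = 0.880). In the Elane and Prtn3 interval 79351590 had means of 86.1 and 59.2% in CD34- cells (adjusted p = 0.353) and 79349500 a difference over both fractions of -15.8 points (adjusted p = 0.334). Those of Mpo 87603932 and of 79337191 rest on single libraries, since 87603932 was above 0 only in PML-RARα CD34- replicate 6 and 79337191 only in PML-RARα CD34+ replicate 3, at 6.74%, and CD34- replicate 14, at 1.02%.

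Whether the difference between fractions itself differs between genotypes was tested as an interaction. No window was called, nor any of all 127276 windows (percent called 0), and no member window had an unadjusted p below 0.05 in the quasi-binomial or in limma's model. No cytosine was called, against 0.00156% of all cytosines, with 3 at an unadjusted p below 0.05 in the quasi-binomial and 2 in limma's model. The smallest p was at 79335020 in the Elane and Prtn3 interval, with fraction differences of -3.22 points in WT and 8.69 points in PML-RARα cells (adjusted p = 0.890). At Mpo it was at 87613390, with -21.0 and -6.38 points (adjusted p = 0.909). At the Ctsg cytosine 56719606 the fraction differences were -14.97 and -13.52 points (adjusted p = 0.945). The test thus did not show a different maturation difference in PML-RARα cells at these loci, and a p that misses the threshold does not show that the differences are alike.

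**Figure D4:**
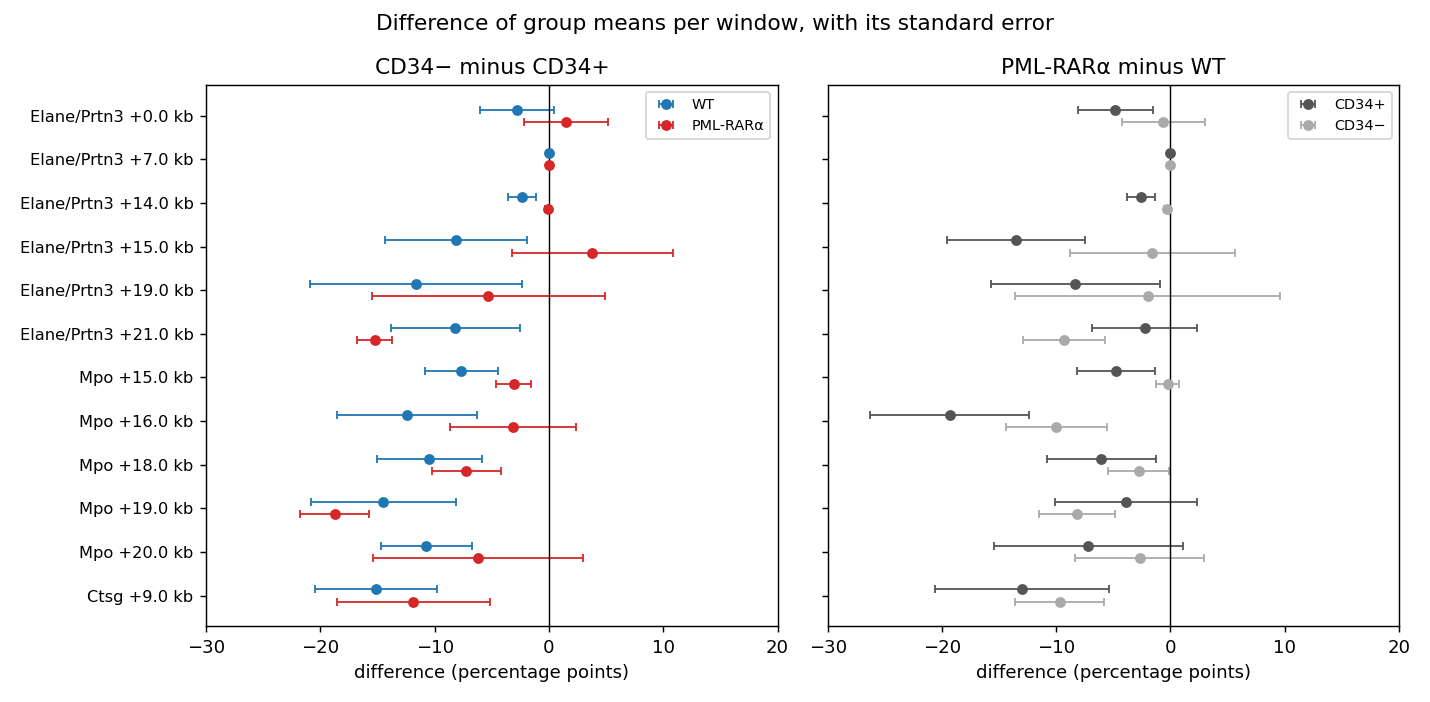
Difference of group means in percentage points (horizontal axis) for the 12 windows, CD34- minus CD34+ at left and PML-RARα minus WT at right, with the standard error from the group SDs (bars). At left 11 of 12 WT and 10 of 12 PML-RARα points lie below 0, and at right all 12 points of both fractions do.

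The direction of the differences was uneven across the 12 windows. The CD34- mean was the lower in 11 windows in WT and in 10 in PML-RARα cells, where 61.5 and 56.2% of all windows had a lower CD34- mean. The median difference over the 12 windows was -9.33 points in WT and -4.22 points in PML-RARα cells, beside -0.376 and -0.118 points over all windows. Among windows with a mean level between 20 and 80%, of which 7 lay in the intervals and 22746 in the genome, the medians were -10.7 and -7.23 points for the 7 and -1.30 and -0.886 points for all. PML-RARα means were the lower in all 12 windows in CD34+ and in CD34- cells, beside 54.3 and 51.0% of all windows, with medians of -5.44 and -2.35 points against -0.0578 and -0.0115. The smallest of these differences, at chr10:79337001-79338000, were -0.0129 points in CD34+ and -0.0380 points in CD34- cells. For genotype the windows are not set beside others of a level between 20 and 80%. The genotype shares and medians over all windows are therefore not matched for level, and they do not show how unusual the intervals are. Neighbouring windows of a locus share libraries and cells, and the comparisons share groups, so these counts are descriptions and carry no test.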

How the data were processed

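CpG methylation was measured by enhanced reduced representation bisulfite sequencing in 20 libraries, and groups, flowcells and lanes were taken from the labels. The submitters' processing notes name CASAVA 1.8.2, Bismark and the mm9 genome. The authors deposited, per the file headers, a count (the coverage of each CpG cytosine on its strand) and the percent of reads with C and with T there. Cytosines under 10 reads were not listed by the authors. Methylated reads were computed as coverage times percent C, rounded, and lay on whole numbers at 100% of cytosines within the rounding of the percent. Reads carry no molecular identifiers, so intervals (Wilson, 95%) and upper limits for 0 (3 reads of the coverage) cover counting error only.

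Reads were summed per cytosine and per 1000 bp window, and each feature on the 19 autosomes was tested in a logistic model of quasi-binomial type over all 20 libraries (Python, numpy 2.4.6, scipy 1.17.1, numba 0.67.0). The overdispersion was moderated as in limma 3.58.1 (squeezeVar) and kept at 1 or above. The model had 1 term per group, or genotype plus fraction where both genotypes or both fractions were joined, and the test was a two-sided F test of the deviance with Benjamini-Hochberg adjustment over all windows or all cytosines. A feature was called at an adjusted p below 0.05 and at least 10 points between the means of library levels. The script was checked on simulated data. Of the 7 comparisons, 2 were between fractions, 2 between genotypes, 1 the interaction, and 2 joined both. Per interval, the windows of largest difference and of lowest and highest level and the cytosines of smallest p were named, and all called features. The alternatives were limma's linear model of log2((methylated + 1)/(unmethylated + 1)), written anew in Python, other coverage rules and windows, flowcell as a factor, blocks by title numbers, and fits without single libraries, without 5 libraries of high scatter, and, chosen after seeing the data, without 6 libraries of many extreme values. The members and lists were chosen with earlier results of these data known. Other granule genes, exons and promoters on mm9 were not analysed here.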

Additional observations from a re-analysis of the deposited data

Results flagged for a closer look

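Dixon's criterion was applied in 68 groups of 4 or 5 libraries (the 12 windows, the interval means and the called cytosines in each of the 4 groups). By it 7 values lay far from the others of their group, where chance singles out about 1 group in 20, or 3.4. Windows, means and cytosines of an interval share reads, so the 7 values are not independent. At the Mpo window 87610001, WT CD34- replicate 10 was at 2.95% (13 of 441 reads, 95% Wilson interval 1.73 to 4.98%), with the others between 0.505 and 0.909%, and PML-RARα CD34- replicate 12 was at 4.43% (7 of 158 reads, 2.16 to 8.86%), with the others at 0%. At the Ctsg window 56719001, WT CD34+ replicate 1 was at 68.9% (84 of 122 reads, 60.2 to 76.4%), with the others between 43.4 and 50.4%, and PML-RARα CD34- replicate 12 was at 37.7% (167 of 443 reads, 33.3 to 42.3%), with the others between 21.7 and 26.0%. The mean over the Ctsg cytosines, which are those of this window, was 62.1% in WT CD34+ replicate 1 and between 42.2 and 46.4% in the others. Replicate 1 had 5 of the 6 cytosines. The Mpo cytosine 87614716 was at 8.94% in PML-RARα CD34- replicate 20 (21 of 235 reads, 5.92 to 13.3%) and between 0 and 1.30% in the others. The Ctsg cytosine 56719606 was at 53.8% in WT CD34+ replicate 9 (21 of 39 reads, 38.6 to 68.4%) and between 36.7 and 41.0% in the others. Of these 7 values, 4 were in WT CD34+ replicate 1 or PML-RARα CD34- replicate 12, which are among the 5 libraries of high scatter.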

How the results depend on the processing

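The Mpo window 87614001 kept its call between fractions over both genotypes in 29 of 30 alternatives with the same window borders, and lost it when windows were moved by 500 bp (87614501: -11.6 points, adjusted p = 0.181). The number of member windows called over both genotypes was 1; it was 0 with limma's linear model, 2 without the 5 libraries of high scatter, 2 without the 6 of many extreme values (an alternative chosen after seeing the data), 2 with limma on the mean of cytosine percents, and from 1 to 2 when single libraries were left out (2 without WT CD34+ replicate 15, WT CD34- replicate 10, PML-RARα CD34+ replicate 11 or PML-RARα CD34- replicate 12). In WT cells it was 0 and became 1 with limma on the mean of cytosine percents (Mpo 87613001) and with windows moved by 500 bp (Mpo 87612501). In PML-RARα cells it was 0 and became 1 with a coverage of 10 in all 20 libraries, and ranged from 0 to 1 without single libraries (1 without WT CD34+ replicates 1 or 9, WT CD34- replicate 16 or PML-RARα CD34- replicate 20). With windows moved by 500 bp the number over both genotypes was again 1, but at Mpo 87612501. Between genotypes and for the interaction no member was called in any alternative.

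Of single cytosines 2 were called over both genotypes. This number was 0 with limma, 0 with flowcell as a factor, 1 with a replicate block of consecutive title numbers, 4 with a replicate block of the number after #, 1 with a coverage of at least 20, 3 with a coverage of 10 in all 20 libraries and 3 with both strands summed. It was 2 without the 5 libraries of high scatter, but neither of the reported cytosines (Mpo 87615236 and Ctsg 56719619), and 1 without the 6 of many extreme values (Ctsg 56719619). Without single libraries it ranged from 0 to 3: it was 3 without WT CD34- replicate 10, 0 without WT CD34+ replicates 7 or 9, WT CD34- replicates 2, 8 or 16, PML-RARα CD34+ replicates 3 or 19, or PML-RARα CD34- replicates 4 or 12, and 1 without WT CD34+ replicates 15 or 17, WT CD34- replicate 18, PML-RARα CD34+ replicates 5 or 11, or PML-RARα CD34- replicate 14. In WT cells it ranged from 0 to 1 (1 without WT CD34- replicate 10). The interaction at the Ctsg cytosine 56719606, 1.45 points, changed sign when single libraries were left out and ranged from -1.58 to 4.32 points: it was -1.58 without WT CD34+ replicate 9, -1.18 without WT CD34- replicate 2, -1.54 without PML-RARα CD34+ replicate 13, -0.225 without PML-RARα CD34- replicate 4 and -0.147 without PML-RARα CD34- replicate 14.

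With all reads of an interval pooled, the Mpo level was 32.3% in WT CD34+, 23.9% in WT CD34- and 18.6% in PML-RARα CD34- cells, and that of Elane and Prtn3 was 16.6% in WT CD34-, 15.3% in PML-RARα CD34+ and 13.8% in PML-RARα CD34- cells. The cause of these changes was not tested. Over all windows, the number called ranged across alternatives from 164 to 689 in WT cells (541 as reported), from 0 to 110 in PML-RARα cells (71) and from 345 to 1120 over both genotypes (773). For cytosines the ranges were 2 to 833 (737), 0 to 3078 (58) and 1068 to 2023 (1773). The titles do not state that consecutive numbers pair libraries, although such libraries share the genotype and the number after #. Their correlations ranged from -0.0573 to 0.237. Each was set beside the highest correlation with another library of that group. It was the higher for numbers 1 and 2, 7 and 8, 9 and 10, 11 and 12, 17 and 18, and 19 and 20. It was the lower for 3 and 4, 5 and 6, 13 and 14, and 15 and 16. The correlations did not decide whether the numbers pair libraries. The main tests did not use the numbers as pairs, and only an alternative used them as blocks. The coverage of 15 to 39 reads in some libraries limits the precision at the Ctsg cytosine.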
